A study of Mus musculus with 12 samples.

Results

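Prostaglandin synthesis and receptor genes were followed in the corneal endothelium of mice as 10 genes, chosen by symbol from the 32761 genes of the count table: Ptgs1, Ptgs2, Ptges, Ptges2, Ptges3, Ptgds, Ptgis, Ptger4, Ptgfr and Hpgd. All 10 passed a filter on low counts that kept 17965 genes for testing. The mutant mice were homozygous for Col8a2 Q455K, an amino acid change in a collagen VIII chain of Descemet's membrane that serves as a model of Fuchs endothelial corneal dystrophy. The controls were wild-type mice, named c57 in the headers of the authors' deposited tables. The early stage was an age of at most 2 months and the late stage an age of at least 8 months, with 3 biological replicates in each of the 4 groups. No treatment is named for any group, and the sources used here do not say whether animals were pooled. All early libraries carry the label batch 1 and all late libraries batch 2, so stage and batch cannot be told apart, while mutant and wild type were compared within a batch.

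Prostaglandins are lipid signals made from arachidonic acid, which phospholipases release from membranes. The cyclooxygenases Ptgs1 and Ptgs2 turn it into the unstable prostaglandin H2, and a separate synthase then makes each end product: Ptges, Ptges2 and Ptges3 prostaglandin E2, Ptgds prostaglandin D2 and Ptgis prostacyclin. The products act on receptors in the cell membrane, among them Ptger4 for prostaglandin E2 and Ptgfr for prostaglandin F2 alpha, and Hpgd starts their breakdown. Ptgs1 is in most tissues expressed without a stimulus, whereas Ptgs2 is induced by growth factors, cytokines and injury.

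The libraries held between 19722598 counts (early wild-type replicate 2) and 39431676 counts (early mutant replicate 1). Levels are given as CPM, a library's counts scaled to a common total, after TMM scaling, and a level of 3 counts corresponds to 0.0773 to 0.132 CPM. The 10 listed markers of the labelled tissue differed widely in level. Slc4a11, a transporter of the corneal endothelium, lay between 1830 and 6150 CPM in the 12 libraries. Cdh2 lay at 41.8 to 101 CPM, Tjp1 at 28.8 to 94.4 CPM and Car12 at 2.21 to 11.1 CPM. The 10 genes summed to 6560 to 14800 CPM. The sum of 5 keratocyte genes, mostly Dcn, was above that in every library, at 16500 to 29300 CPM. Col8a2 itself lay between 605 and 1740 CPM, and since the mutation changes 1 amino acid, its level does not check the genotype labels. Late wild-type replicate 1 stood apart from the other late wild-type libraries by the noise in its counts: the spread of its counts against replicates 2 and 3 was 234.8 and 236.8 times sampling noise, against 59.15 between those. By the correlation of log counts it did not stand apart, with 0.891 and 0.8937 against those replicates and 0.8907 between them. Several values below move without that library and are therefore given both ways.

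Ptgs2, the inducible cyclooxygenase, was higher in the mutants at both stages, about 3.11-fold early and 3.74-fold late. Ptgds, the prostaglandin D2 synthase, was lower in the late mutants by a factor of 2.58, while at the early stage its mutant libraries lay above the wild-type ones without passing the test. These were the calls among the 10 genes at an adjusted p under 0.05 in edgeR's quasi-likelihood test, adjusted over all genes tested. At the early stage 1 of the 10 was called higher and 0 lower, where 0.557% of all genes tested were called higher and 0.0334% lower. At the late stage 1 was called higher and 1 lower, where 2.77% of all genes were called higher and 2.71% lower. The median log2 fold change of the 10 genes was 0.15 early, against -0.11 over all genes tested, and 0.51 late, against 0.0. In bulk tissue fewer cells of a type and less RNA per cell cannot be told apart.

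**Figure D1:**
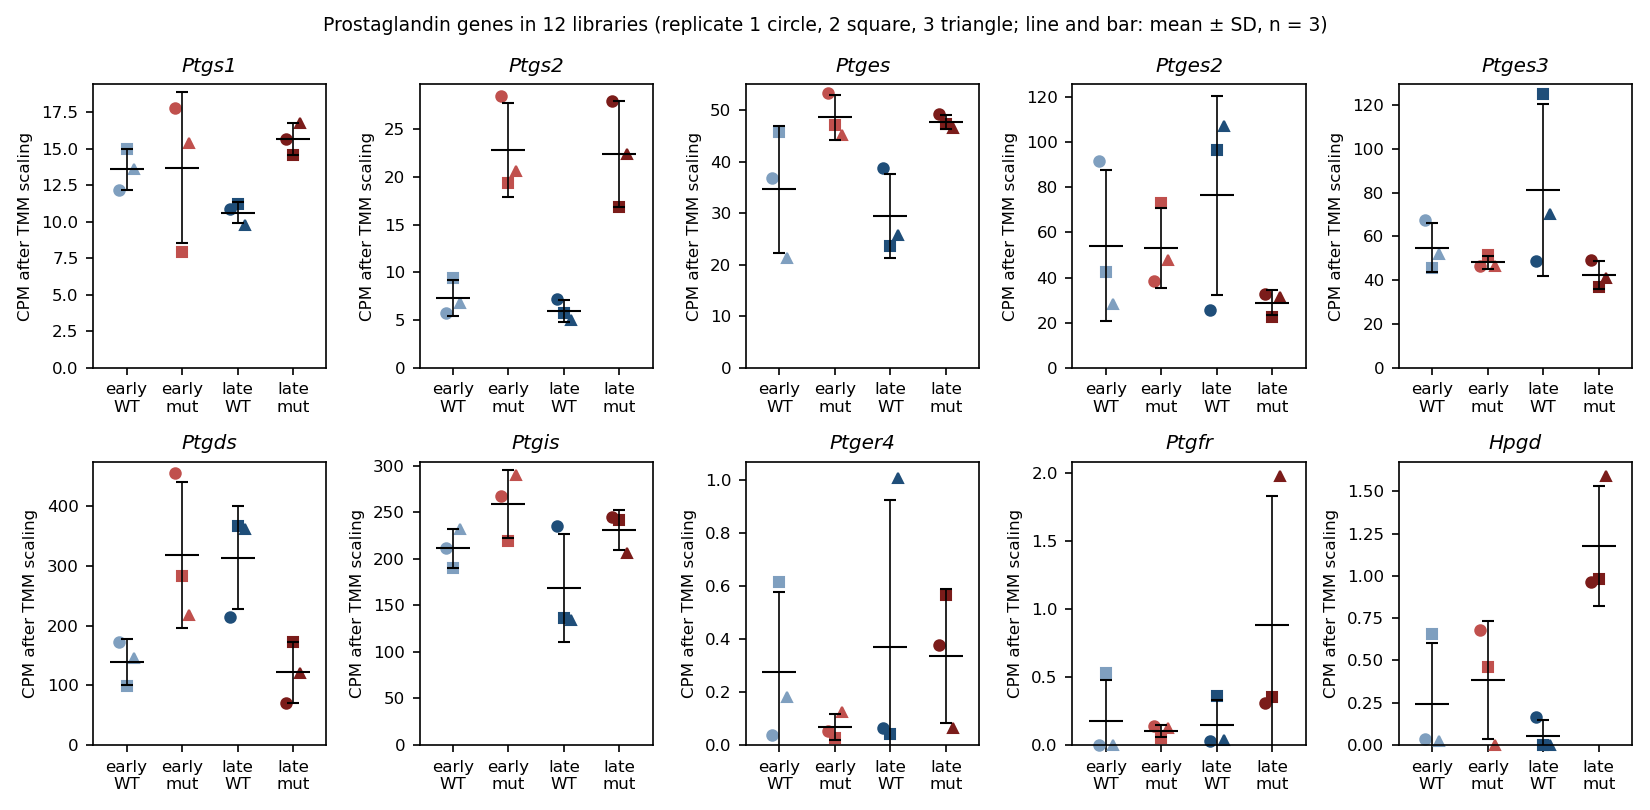
Level of each of the 10 genes in the 12 libraries (vertical axis: CPM after TMM scaling, from 0, with its own scale for each gene; horizontal axis: the 4 groups; circle, square and triangle: replicates 1, 2 and 3; line and bar: mean ± SD, n = 3, with bars that would pass below 0 ending there). The mutant libraries of Ptgs2 lie at 16.8 CPM or more at both stages and all wild-type libraries at 9.45 CPM or less, and the late mutant libraries of Ptgds lie below all late wild-type libraries.

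The promoters of Ptgs2 and Ptgds are shown because these are the genes that passed the test. Each window runs from 250 bases before to 50 bases after the start given by RefSeq on GRCm38.p6, at chr1:150099781-150100080 on the plus strand for Ptgs2 and chr2:25469700-25469999 on the minus strand for Ptgds, and capitals mark matches to 4 of 6 short motifs searched on both strands.
Ptgs2: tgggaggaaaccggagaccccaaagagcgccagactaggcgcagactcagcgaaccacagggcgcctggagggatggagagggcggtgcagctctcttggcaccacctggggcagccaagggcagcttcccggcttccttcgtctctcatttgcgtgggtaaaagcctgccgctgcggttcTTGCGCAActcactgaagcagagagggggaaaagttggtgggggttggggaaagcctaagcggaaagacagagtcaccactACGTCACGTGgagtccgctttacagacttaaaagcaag
Ptgds: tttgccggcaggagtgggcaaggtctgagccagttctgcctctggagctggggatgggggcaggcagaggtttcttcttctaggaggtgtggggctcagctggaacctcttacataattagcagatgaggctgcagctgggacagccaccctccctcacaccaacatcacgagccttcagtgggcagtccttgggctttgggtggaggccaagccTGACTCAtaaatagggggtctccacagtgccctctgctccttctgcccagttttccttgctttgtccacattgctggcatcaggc
The first capitals in Ptgs2 match TTGCNNAA, the C/EBP motif, 69 bases before the start; 10.8% of the 32544 mouse promoters in the table hold such a match. The second run lies after the start. It holds the cyclic AMP response element in its short form TGACGT, read on the opposite strand, 12 bases after the start, which 7.55% of promoters hold. Overlapping it is the E-box CACGTG, 16 bases after the start, which 7.17% hold. In Ptgds the capitals match the AP-1 motif TGANTCA, 35 bases before the start, which 7.79% of promoters hold. Among the 9 members found in the table, the E-box was also present in Ptges2, and each of the other 3 motifs was present in the 1 promoter shown. Of the motifs left in lower case, the TATA box letters TATAAA were present in 1 of the 9 and in 13.6% of promoters. That match, in Hpgd, lies 4 bases after the start. The GC box GGGCGG was present in 6 of the 9, Ptgs2 among them, and in 35.9% of promoters. A match describes letters in the window and no binding was measured.

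Ptgs2 was at 5.73, 9.45 and 6.83 CPM in early wild-type replicates 1, 2 and 3, and at 28.5, 19.4 and 20.6 CPM in the early mutants. In the late wild-type libraries it was at 7.25, 5.70 and 4.97 CPM, and in the late mutants at 28.0, 16.8 and 22.4 CPM. The genotypes did not overlap at either stage, and the lowest mutant library was above the highest wild-type library of both stages together. The early log2 fold change was 1.64 ± 0.31 (SE, n = 3 against 3, adjusted p = 0.0118) and the late one 1.90 ± 0.31 (adjusted p = 0.00254). Averaged over the stages it was 1.77 ± 0.22 (adjusted p = 5.24e-05); in that average 1 of the 10 genes was called, where 6.85% of all genes were. The late call held in each of 20 alternative analyses, whose adjusted p ran from 6.23e-07 to 0.0181. The early call was lost in 3 of 20, at adjusted p = 0.0974 without early mutant replicate 1, 0.0753 without early wild-type replicate 1 and 0.0581 without early wild-type replicate 3, over a range of 3.99e-05 to 0.0974. The authors' deposited table gives a fold change of 3.03 early (q = 3.5e-05) and 3.59 late (q = 0.000113).

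Ptgs2 did not differ detectably between stages: late minus early was -0.29 ± 0.30 on the log2 scale in wild type and -0.03 ± 0.30 in mutants. The genotype effect itself differed between the stages by 0.26 ± 0.42 (adjusted p = 0.859). An antisense transcript named Ptgs2os is listed in the table and was at 2.09 to 6.80 CPM over the 12 libraries, with no call at either stage. The sources used here do not give the strand setting of the counting, and reads of Ptgs2 and Ptgs2os could not be told apart if the counting ignored strand.

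Ptgs1, the other cyclooxygenase, was at 12.2, 15 and 13.6 CPM in early wild type and at 17.8, 7.92 and 15.4 CPM in early mutants, so the early groups overlapped. At the late stage it was at 10.9, 11.2 and 9.79 CPM in wild type and at 15.7, 14.6 and 16.8 CPM in mutants, without overlap. Its log2 fold change was 0.01 ± 0.30 early (adjusted p = 0.988) and 0.57 ± 0.30 late (adjusted p = 0.218), and neither passed the test. Per gene length, in the FPKM values deposited by the authors, the order of the cyclooxygenases differed by genotype. The ratio of Ptgs2 FPKM to Ptgs1 FPKM was 0.526, 0.703 and 0.561 in early wild type and 0.747, 0.569 and 0.568 in late wild type. In the mutants that ratio was 1.78, 2.73 and 1.49 early and 1.99, 1.28 and 1.49 late. Ptgs1 was thus the more abundant per length in all 6 wild-type libraries and Ptgs2 in all 6 mutant libraries, which is given as a description with no test.

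**Figure D2:**
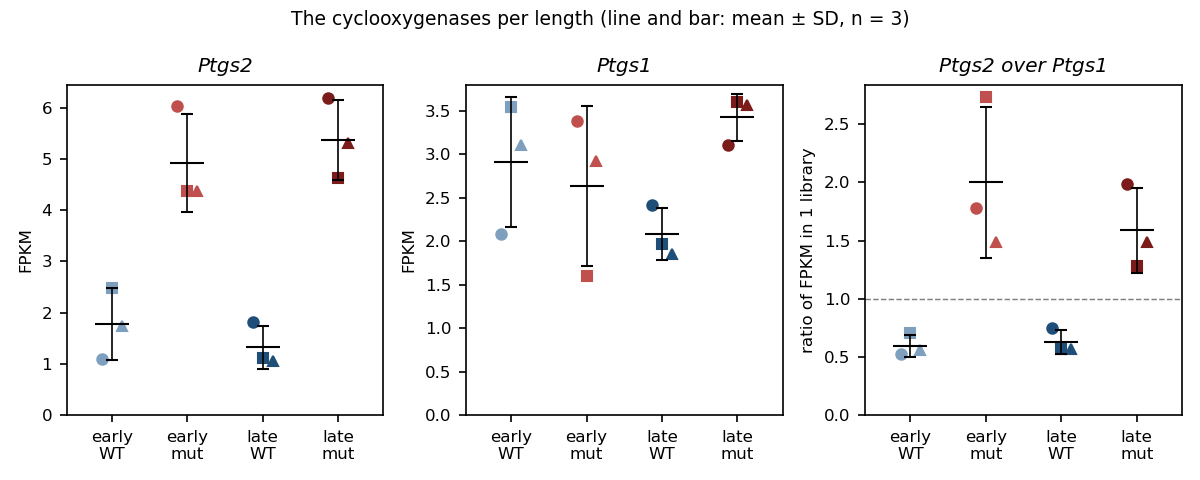
FPKM of Ptgs2 and of Ptgs1, and the ratio of Ptgs2 to Ptgs1 within each library (horizontal axis: the 4 groups; circle, square and triangle: replicates 1, 2 and 3; line and bar: mean ± SD, n = 3; dashed line: a ratio of 1). The ratio lies at 0.526 to 0.747 in wild-type libraries and at 1.28 to 2.73 in mutant libraries.

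Ptgds was at 173, 98.2 and 146 CPM in early wild type and at 454.9, 283 and 218 CPM in early mutants. At the late stage it was at 214, 366 and 361 CPM in wild type and at 70.7, 173 and 121 CPM in mutants. The genotypes did not overlap at either stage, but the mutant libraries were the higher ones early and the lower ones late. The early log2 fold change was 1.19 ± 0.35 (SE, n = 3 against 3, unadjusted p = 0.00296, adjusted p = 0.222), which is not a call. Late it was -1.37 ± 0.35 (adjusted p = 0.0318). That call was lost in 4 of 20 alternatives, at adjusted p = 0.136 without late mutant replicate 1, 0.120 without late mutant replicate 3, 0.100 without late wild-type replicate 2 and 0.0977 without late wild-type replicate 3, over a range of 0.00175 to 0.136. Without late wild-type replicate 1 the late value was -1.45 ± 0.35 (adjusted p = 0.0144). The authors' deposited table gives Ptgds a fold change of 2.22 early (q = 0.0292) and a log2 fold change of -1.47 late (q = 0.00355).

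The late effect on Ptgds minus the early one was -2.56 ± 0.50 on the log2 scale, with unadjusted p = 5.62e-05 and adjusted p = 0.094. In this test of the difference edgeR called 0 of the 10 genes, where 0.00557% of all genes were called; 1 of the 10 had an unadjusted p under 0.05, as had 11.2% of all genes, and DESeq2 and limma-voom each called 1, where they called 1.72% and 0.507% of all genes. Each of those single genes was Ptgds, and the difference passed the threshold in 6 of 19 alternatives, over a range of adjusted p from 6.58e-06 to 0.219. Without late wild-type replicate 1 the difference was -2.68 ± 0.48 (adjusted p = 0.0188). Within a genotype the level moved in opposite directions, by 1.17 ± 0.35 from early to late in wild type and by -1.39 ± 0.35 in mutants. Neither stage comparison had a call among the 10 genes in edgeR, nor among all genes (0% called); each had 1 of the 10, Ptgds, at an unadjusted p under 0.05, as had 4.03% of all genes in wild type and 6.53% in mutants. Shares for DESeq2 are throughout of the genes it gave an adjusted p, 17369 for the early genotype effect and 19157 for the late one. For the stage comparison in wild type DESeq2 and limma-voom called 0 of the 10 and 0% of all genes. In mutants each called 1, Ptgds. There DESeq2 called 1.01% of only 4179 genes given an adjusted p, and limma-voom 1.66% of all genes tested. These stage values carry the change of batch as well, whereas the difference between the genotype effects compares values taken within each batch.

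**Figure D3:**
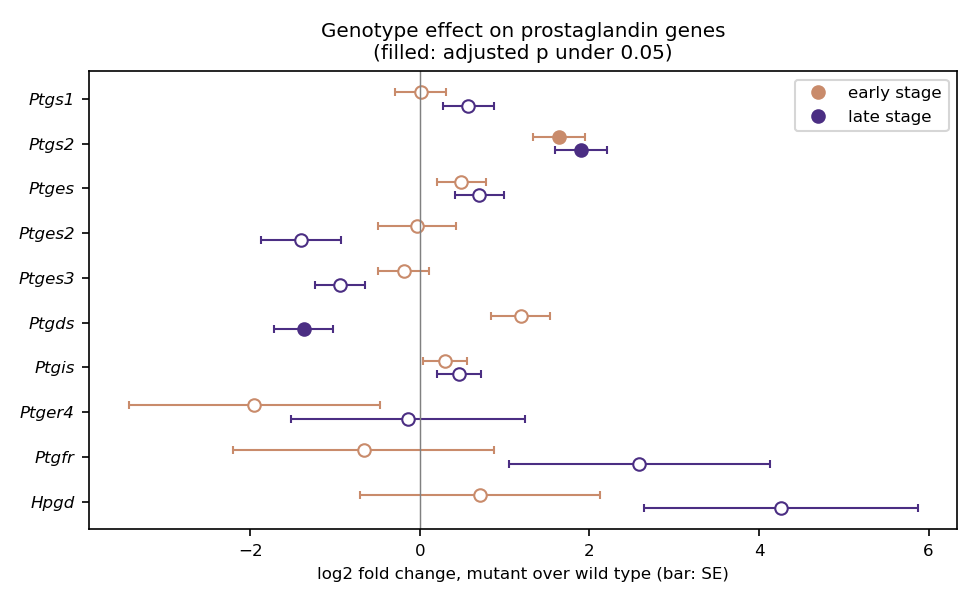
Log2 fold change of mutant over wild type for each of the 10 genes at the early and the late stage (horizontal axis: log2 fold change; bars: SE; filled circles: adjusted p under 0.05). Ptgs2 lies near 1.64 and 1.90 at the 2 stages, whereas Ptgds lies at 1.19 early and -1.37 late.

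Of the prostaglandin E2 synthases, Ptges, the inducible membrane form, was at 36.9, 45.7 and 21.3 CPM in early wild type and at 53.4, 47.2 and 45.2 CPM in early mutants. Its late values were 38.8, 23.7 and 25.8 CPM in wild type and 49.3, 47.4 and 46.6 CPM in mutants. The early groups overlapped by 1 wild-type library, and all late mutants lay above all late wild types. The log2 fold change was 0.49 ± 0.29 early (adjusted p = 0.602) and 0.70 ± 0.29 late (adjusted p = 0.129), and neither passed the test. Late wild-type replicate 1 was the highest of the late wild-type libraries, and without it the late value was 1.08 ± 0.28 (adjusted p = 0.0192), in a range over the alternatives of 0.0128 to 0.314.

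Ptges2, a membrane-associated synthase, was at 91.9, 42.4 and 28.3 CPM in early wild type and at 38.4, 73.0 and 47.8 CPM in early mutants, with a log2 fold change of -0.03 ± 0.46. Its late levels were 25.7, 96.5 and 107 CPM in wild type and 32.9, 22.5 and 31.3 CPM in mutants. Here late wild-type replicate 1 lay among the mutants, and the other late wild-type libraries lay above all of them. The late log2 fold change was -1.40 ± 0.47 (adjusted p = 0.078). It passed the threshold in 6 of 20 alternatives, among them DESeq2 (adjusted p = 0.0339) and the fit without late wild-type replicate 1 (-1.68 ± 0.38, adjusted p = 0.0115), over a range of 0.00156 to 0.23. The authors' deposited table gives a late log2 fold change of -1.50 (q = 0.0233).

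Ptges3, a cytosolic synthase better known as the Hsp90 co-chaperone p23, was at 67.3, 45.6 and 51.8 CPM in early wild type and at 46.4, 51.6 and 46.4 CPM in early mutants. Late it was at 48.6, 125 and 70.2 CPM in wild type and at 49.3, 36.9 and 40.8 CPM in mutants. As for Ptges2, late wild-type replicate 1 fell within the range of the mutants. The log2 fold change was -0.19 ± 0.30 early (adjusted p = 0.821) and -0.94 ± 0.30 late (adjusted p = 0.0702). Without late wild-type replicate 1 the late value was -1.07 ± 0.27 (adjusted p = 0.0169), and over the alternatives the adjusted p ran from 0.0129 to 0.324, with 4 of 20 under the threshold. A pseudogene named Ptges3-ps is in the count table, so part of the Ptges3 reads may have been shared with it.

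Ptgis, the prostacyclin synthase, was at 211, 190 and 232 CPM in early wild type and at 267, 219 and 290 CPM in early mutants. Late it was at 235, 136 and 134 CPM in wild type and at 245, 242 and 206 CPM in mutants. The groups overlapped at both stages, late only through wild-type replicate 1. The log2 fold change was 0.30 ± 0.26 early (adjusted p = 0.693) and 0.46 ± 0.26 late (adjusted p = 0.256). Without late wild-type replicate 1 the late value was 0.90 ± 0.23 (adjusted p = 0.0169), in a range over the alternatives of 0.0117 to 0.522.

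Leaving out that 1 library raised the late calls among the 10 genes from 2 to 7: Ptgs2, Ptges, Ptgis and Hpgd higher, and Ptgds, Ptges2 and Ptges3 lower. Over all genes the share called rose alongside, from 5.47% to 20.3%. With early wild-type replicate 2, the shallowest library, left out as well, the late calls were the same 7, where 23.8% of all genes were called, and the early call was Ptgs2 alone, where 0.682% were. DESeq2 on all libraries called 5 of the 10, where it called 13.1% of all genes given an adjusted p, and limma-voom with sample weights called 4, where it called 9.62%. Without overlap between the late genotypes were 4 genes higher in mutants (Ptgs1, Ptgs2, Ptges and Hpgd) and 1 lower (Ptgds), where 14.9% and 10.9% of all genes tested did so. At the early stage 2 of the 10, Ptgs2 and Ptgds, lay higher without overlap, where 10.1% of all genes did so, and 0 lay lower, where 11.8% did so.

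**Figure D4:**
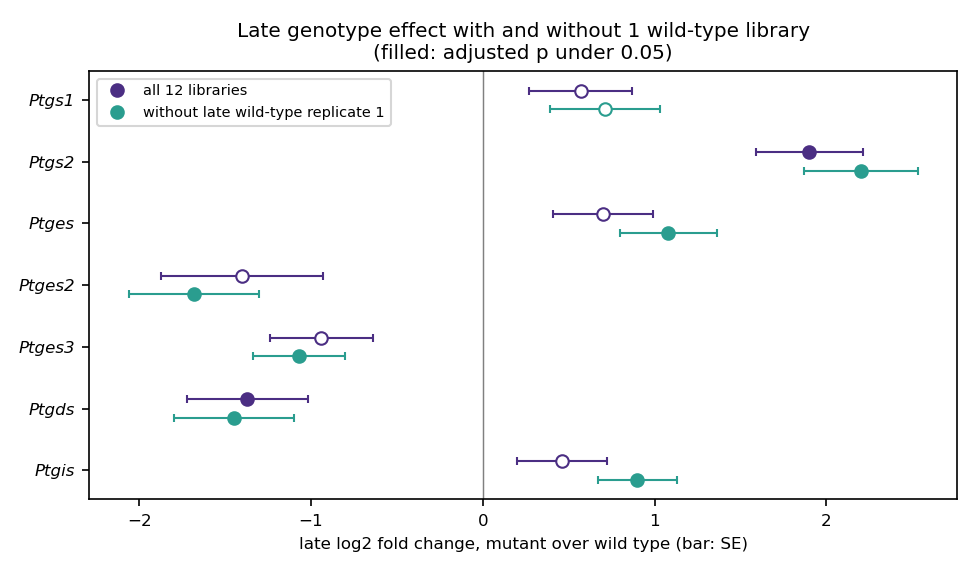
Late log2 fold change of mutant over wild type for the 7 genes above 4 CPM, with all 12 libraries and without late wild-type replicate 1 (horizontal axis: log2 fold change; bars: SE; filled circles: adjusted p under 0.05). Ptges, Ptges2, Ptges3 and Ptgis pass the threshold in the second fit, at 1.08, -1.68, -1.07 and 0.90.

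The receptors and the breakdown enzyme were counted in few reads. Hpgd, which starts the inactivation of prostaglandins, had 1, 15 and 1 counts in early wild type and 25, 17 and 0 in early mutants. Late it had 5, 0 and 0 counts in wild type and 28, 33 and 49 in mutants, the latter equal to 0.963, 0.982 and 1.59 CPM. All late mutants thus lay above all late wild types, and the early groups overlapped. The late log2 fold change was 4.26 ± 1.61 (adjusted p = 0.104). It passed the threshold in DESeq2 (adjusted p = 0.0437), and also without late wild-type replicate 1 (adjusted p = 0.0334), over a range of 0.0211 to 0.227. The late wild-type libraries left in that fit, replicates 2 and 3, had 0 counts of Hpgd. Against a floor of 3 counts in each of these, its mean level in late mutants was at least 9.93-fold higher. Late wild-type replicate 1, with 5 counts, is not part of that value. The fitted log2 fold change of 8.21 depends on the prior count and is no bound. The authors' deposited table gives Hpgd a late fold change of 20.3 (q = 0.0289).

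Ptger4, a receptor for prostaglandin E2, had 1, 14 and 7 counts in early wild type, 2, 1 and 4 in early mutants, 2, 1 and 26 in late wild type and 11, 19 and 2 in late mutants. Ptgfr, the prostaglandin F2 alpha receptor, had 0, 12 and 0 counts in early wild type, 5, 2 and 4 in early mutants, 1, 9 and 1 in late wild type and 9, 12 and 61 in late mutants. In late wild type 1 library held 26 of the 29 Ptger4 counts, and in late mutants 1 library held 61 of the 82 Ptgfr counts. The log2 fold change of Ptger4 was -1.95 ± 1.48 early and -0.14 ± 1.38 late, and that of Ptgfr -0.66 ± 1.54 early and 2.59 ± 1.54 late. No difference in either receptor was detectable at this depth, and single libraries moved these values. Without early wild-type replicate 2 the early value was 4.79 for Ptgfr and -0.68 for Ptger4. The late value of Ptgfr was 1.32 without late mutant replicate 3 and 4.48 without late wild-type replicate 2, and that of Ptger4 was 2.58 without late wild-type replicate 3 and 0.46 without late mutant replicate 3.

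Per gene length, Ptgds and Ptgis were the most abundant of the 10 in every group. Ptgds had a mean FPKM of 151 ± 27.4 (SD, n = 3) in early wild type, 325 ± 120 in early mutants, 318 ± 57.4 in late wild type and 145 ± 76.5 in late mutants. Ptgis had a mean FPKM of 110 ± 21.0, 123 ± 13.2, 84.0 ± 39.7 and 125 ± 20.3 in the same order. The ranges of these genes overlapped in early wild type (Ptgds from 122, Ptgis up to 131) and in late mutants (Ptgds 74.0 to 226, Ptgis 108 to 148), but within a library Ptgds was above Ptgis in all but late mutant replicate 1. Ptges3 and Ptges2 followed at mean FPKM of 15.7 to 38.6, Ptges at 7.95 to 14.0, and the cyclooxygenases at 1.33 to 5.37. Ptges2 and Ptges3 overlapped in the wild types and in early mutants, and in late mutants Ptges2 (14.0 to 16.7) overlapped Ptges (13.1 to 15.7) instead. Hpgd, Ptger4 and Ptgfr came last, each with a mean FPKM of 0.731 or less.

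The other genes of the pathway were listed in 5 groups with 53 genes, of which 50 were in the table and 38 were tested. At the early stage edgeR called 0 of the 38 and DESeq2 and limma-voom 0 each, where DESeq2 called 1.44% and limma-voom 0.824% of all genes. Of these 38 genes 1 had an unadjusted p under 0.05, as had 8.77% of all genes tested. At the late stage edgeR called 1, Cbr2, where 5.47% of all genes were called in either direction, and 9 had an unadjusted p under 0.05, as had 28.1% of all genes. DESeq2 and limma-voom called 5 of the 38 each, where they called 13.1% and 9.62% of all genes. These late shares also stand beside the calls by role below. Cbr2, a carbonyl reductase, was at 47.2, 69.9 and 82.4 CPM in late wild type and at 27.1, 28.1 and 30.5 CPM in late mutants, without overlap. Its late log2 fold change was -1.22 ± 0.31 (adjusted p = 0.0292), and this call was lost in 6 of 20 alternatives. In 5 of these 1 late library was left out, namely mutant replicate 1, 2 or 3 or wild-type replicate 2 or 3, with adjusted p from 0.085 to 0.11. By role, 9 of 15 phospholipases were tested, with the cytosolic Pla2g4a the best known at a mean of 76.3 to 136 CPM per group and 0 called by edgeR at either stage; late, 3 had an unadjusted p under 0.05, DESeq2 called 1 (Pla2g10) and limma-voom 2 (Pla2g5 and Pla2g12a). Of the other synthases 7 of 8 were tested, with a median late log2 fold change of -0.73 and 2 of the 7 above 0. Besides Cbr2, the prostaglandin F synthase Prxl2b had a late log2 fold change of -0.75 (adjusted p = 0.0674) and the carbonyl reductase Cbr1 -0.73 (adjusted p = 0.08), without a call by edgeR. In all, 5 of the 7 had an unadjusted p under 0.05; limma-voom called Prxl2b, Cbr1 and Cbr2, and DESeq2 these and Hpgds. The summed level of this list was 366 to 496 CPM in late wild type and 284 to 311 CPM in late mutants, without overlap. Hpgds, the second prostaglandin D2 synthase, had a late log2 fold change of 1.92 (adjusted p = 0.0782) at 0.883 CPM in wild type and 3.34 CPM in mutants. Ptger3, a prostaglandin E2 receptor, stood at a mean of 6.18 to 7.97 CPM and was one of 3 of 7 other receptors tested, with 0 called and 0 at an unadjusted p under 0.05. The 7 transport, breakdown and receptor-associated genes, with the uptake carrier Slco2a1 at 12.5 to 19.8 CPM, had 0 called by any of the 3 tools and 0 at an unadjusted p under 0.05 at either stage. Of the lipoxygenase and epoxide branch 12 of 16 genes were tested, with 0 called by any of the tools and 1 at an unadjusted p under 0.05 at each stage. In the average over stages edgeR called 1 of the 12 higher, where 6.85% of all genes were called in either direction. That gene was Alox5ap, which encodes an activating protein of lipoxygenase. DESeq2 also called Alox5ap in the average, whereas limma-voom called Ephx2 and not Alox5ap.

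The genes whose pattern over the 12 libraries was most like that of Ptgs2, by the root-mean-square difference of standardized log2(CPM + 1), were Jun at 0.091, Icam1 at 0.158 and Plat at 0.163. Jun encodes a subunit of the AP-1 transcription factor, Icam1 a leukocyte adhesion molecule and Plat the tissue plasminogen activator. Jun had a mean of 21.7 CPM in early wild type, 65.8 in early mutants, 15.9 in late wild type and 63.6 in late mutants. For Ptgds the nearest genes were less alike, Mxi1 at 0.384, Inca1 at 0.394 and Khk at 0.422; Mxi1, a member of the Max network of transcription factors, had means of 24.0, 43.0, 45.3 and 20.1 CPM in the same order. These are descriptions over 12 libraries that differ in depth and, between stages, in batch, with no test.

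Many, but not all, genes of the immediate early response were higher in the mutants, as was Ptgs2. Of the 25 tested, 22 had a log2 fold change above 0 early and 23 late. The exceptions early were Fosb (-2.20), Nr4a3 (-1.03) and Egr2 (-0.64), each at 0.967 CPM or less at that stage. Late they were Fosb (-0.10) and Maff (-0.61), the latter lower without overlap. Of 25 tested immediate early genes 5 were called higher early (Fos, Jun, Egr1, Atf3 and Klf6), where 0.557% of all genes were, and 10 late, where 2.77% were, with 0 lower at either stage. Their summed level was 848 to 1720 CPM in early wild type against 2180 to 2790 CPM in early mutants, and 844 to 1160 CPM against 1700 to 3190 CPM late. Ccn1 was the largest part of that sum, at 1360 to 1780 CPM in early mutants. It was not called early (log2 fold change 0.83, edgeR adjusted p = 0.417) and was called late (1.64, adjusted p = 0.00727). Many macrophage markers were also higher, with 7 of 13 called higher early and 10 of 13 late, beside the same shares of all genes. Early, 11 of the 13 had a log2 fold change above 0, with Mrc1 at -0.62 and Ptprc at -1.57. Adgre1 (0.76), Csf1r (0.69), Cx3cr1 (0.33) and Aif1 (1.55) were not called early either. Late, all 13 lay above 0, and Cx3cr1, Mrc1 and Ptprc were not called. The macrophage sum was 39.1 to 65.3 CPM in early wild type and 255 to 587 CPM in early mutants, and 42.8 to 65.4 CPM and 408 to 494 CPM late. Lyz2, a lysozyme gene, was the largest part of that sum, at 11.6 to 42.4 CPM in early wild type and 171 to 344 CPM in early mutants. The part of these genes in the Ptgs2 result was not tested.

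Markers of pigment cells and retina were present beside the Ptgds values. Over all genes edgeR called 0.557% higher early and 2.77% late, DESeq2 called 1.44% and 13.1% in either direction, and limma-voom 0.824% and 9.62%. The share at an unadjusted p under 0.05 was 8.77% early and 28.1% late. The 6 melanocyte genes summed to 29.9 to 43.9 CPM in early wild type, 90.5 to 227 CPM in early mutants, 10.5 to 124 CPM in late wild type and 82.6 to 117 CPM in late mutants. None of the 6 was called by edgeR at either stage; 5 early and 0 late had an unadjusted p under 0.05, and DESeq2 called 2 early (Tyrp1 and Pmel) and limma-voom 0. The photoreceptor sum was 12 to 34.1, 101 to 235, 25.9 to 72.2 and 38.0 to 206 CPM in the same order, with 2 of 5 called higher early and 0 late, where 3 had an unadjusted p under 0.05, DESeq2 called 3 and limma-voom 0. Within the early mutants, the late wild types and the late mutants the melanocyte sum and Ptgds had the same order over the 3 libraries. In early wild type the orders of the melanocyte sum and Ptgds differed, with replicate 2 the lowest in both. The photoreceptor sum had the order of Ptgds in the late wild types and the late mutants, and not in the early groups. An order over 3 libraries is a description with no test. The late mutants had a melanocyte sum above that of early wild type and overlapping that of late wild type, with Ptgds below all late wild-type libraries. The part of these cells in the Ptgds values was not tested.

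**Figure D5:**
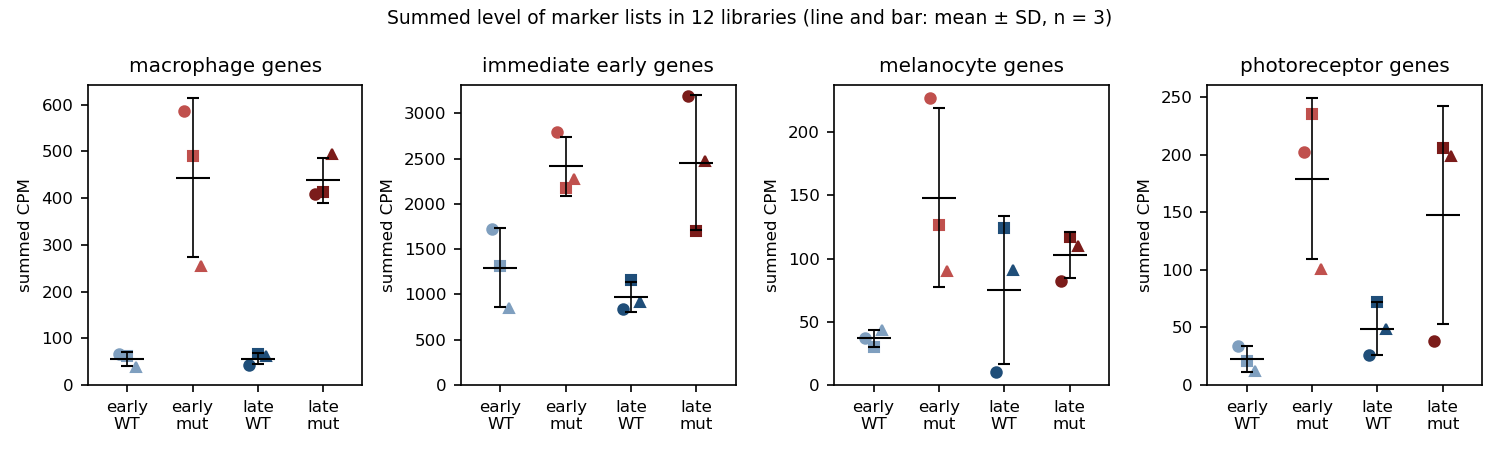
Summed level of macrophage, immediate early, melanocyte and photoreceptor genes in the 12 libraries (vertical axis: summed CPM after TMM scaling, from 0; horizontal axis: the 4 groups; circle, square and triangle: replicates 1, 2 and 3; line and bar: mean ± SD, n = 3). The macrophage sum lies at 65.4 CPM or less in all wild-type libraries and at 255 CPM or more in all mutant libraries.

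Other cell types were represented as follows. Beside these lists, edgeR called 0.557% of all genes tested higher and 0.0334% lower early, and 2.77% higher and 2.71% lower late. DESeq2 called 1.44% early and 13.1% late, and limma-voom 0.824% and 9.62%. An unadjusted p under 0.05 was held by 8.77% early and 28.1% late. The keratocyte list had 2 of 5 genes called higher early and 3 late, Kera (6.86 to 18.0 CPM in early wild type, 45.6 to 101 CPM in early mutants) and Lum at both stages and Angptl7 late. The other members were not called: Ogn had a log2 fold change of -0.44 early and -0.66 late, and Dcn -0.06 early and 0.25 late. Dcn makes up most of the list's sum, which overlapped between the genotypes at both stages (16500 to 25900 against 18900 to 22100 CPM early, 18800 to 23900 against 18000 to 29300 CPM late). The vascular endothelium list, at 10.3 to 35.6 CPM summed, had 0 of 6 called by edgeR at either stage; late, 1 had an unadjusted p under 0.05 and DESeq2 called it (Emcn). The corneal epithelium list, at 1760 to 4200 CPM, had 0 of 5 called by any tool and 1 at an unadjusted p under 0.05 at each stage. Aldh3a1 made up most of that sum, at 1680 to 4180 CPM. The keratins Krt12, Krt5 and Krt14 lay at 2.03 to 72.0, 1.9 to 38.6 and 0.295 to 12.2 CPM, and Pax6 at 0.412 to 6.26 CPM. Smooth muscle and trabecular meshwork genes had 2 of 6 called higher early (Mgp and Chil1), and late these 2 higher and Myh11 lower. Early 3 of the 6 had a log2 fold change above 0, and late 5. Their sum was 269 to 414 CPM in early wild type and 418 to 760 CPM in early mutants. Late it was 205 to 307 CPM in wild type and 572 to 654 CPM in mutants, without overlap at either stage. Lens genes had 2 of 5 called higher late (Cryaa and Cryba1), DESeq2 and limma-voom called 3 late, with Crygs lower (log2 fold change -1.37, edgeR adjusted p = 0.0734), and early 0 by any tool with 2 at an unadjusted p under 0.05. Neutrophil genes stayed at or under 3.63 CPM summed, with 0 called by edgeR at either stage, 1 at an unadjusted p under 0.05 at each stage and 1 (S100a8) called late by DESeq2. S100a8 was called higher by edgeR in the average over stages, where 6.85% of all genes were called in either direction. Mast cell genes stayed at or under 1.52 CPM and Schwann cell genes at 17.0 to 36.2 CPM, with 0 called by any tool and 0 at an unadjusted p under 0.05. In the corneal endothelium list 1 of 10 was called higher and 1 lower late, and early 0 by any tool with 1 at an unadjusted p under 0.05.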

How the data were processed

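Corneal endothelium RNA from 12 mouse samples, selected as polyA RNA and sequenced in pairs, was measured by RNA-seq with a directional library kit, per the labels' protocols. Per the submitters' processing notes the tools were fastp, HISAT2, HTSeq and DESeq2 and the build GRCm39; versions and settings are not named there. The authors deposited raw read counts per gene, FPKM values (scaled by gene length and depth), and per stage their own comparison with normalized mean counts (a signal, unused here), p-values, q-values, and fold changes both as a ratio and as log2, per the file headers. Totals per library ran from 19722598 to 39431676 counts.

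Counts were tested with edgeR 4.0.16 in R 4.3.3: TMM scaling, a low-count filter on the 4 groups that removed 14796 of 32761 genes, 1 robust quasi-likelihood fit over the 4 groups (residual degrees of freedom: 8), contrasts of group means, and Benjamini-Hochberg adjustment over the 17965 genes tested with a threshold of 0.05. The script was tested on simulated data. FPKM served only to compare levels between genes. Alternatives were DESeq2 1.42.0 (its size factors and its Wald test), limma 3.58.1 (voom with sample weights), other filters (none, or 5 CPM in 3 libraries), the compared libraries alone, a replicate block, and each library left out in turn. The text names all members, other pathway genes past the threshold at either stage, and the 3 tested genes with a mean of at least 5 CPM nearest in pattern to each member called. A few others were named after their values were seen. The members and lists were chosen with earlier results of these data known. Pla2g4b, Pla2g2a and Ptgdr were not analysed here, and promoters came from the RefSeq table for 9 of the 10 members, not for Ptgis.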

Additional observations from a re-analysis of the deposited data

How the results depend on the processing

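Among the 10 prostaglandin genes the early count of calls was 1, and became 2 with no filter and 0 to 1 when 1 library was left out. The late count was 2, and became 5 with DESeq2, 4 with limma-voom, 7 without both late wild-type replicate 1 and early wild-type replicate 2 (a choice made after seeing the data), and 1 to 7 when 1 library was left out. For the average over stages the count was 1, and became 2 with no filter, 2 with DESeq2, 4 with limma-voom, 6 without both wild-type libraries, and 1 to 6 when 1 library was left out. For the difference between stages it was 0, and became 1 with no filter, 1 with DESeq2, 1 with limma-voom, 1 without both wild-type libraries, and 0 to 1 when 1 library was left out. Late against early in mutants it was 0, and 1 with no filter, 1 with DESeq2 and 1 with limma-voom; in wild type it was 0 in every alternative. Over all genes the early count of 106 became 361 with no filter, 250 with DESeq2 and 51 to 179 when 1 library was left out. The late count of 983 became 1507 with no filter, 2514 with DESeq2, 1728 with limma-voom, 489 with the late libraries alone, 456 with the replicate block, 4371 without both wild-type libraries, and 229 to 3909 when 1 library was left out. The cause of these shifts was not tested.

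Same-numbered mutant and wild-type samples had deviations from their group means that correlated between -0.0808 and 0.0786, not every sample correlated best with its own number, and so the labels' replicate numbers were not taken to pair samples. With the replicate block the counts among the 10 genes were 1 early (Ptgs2), 2 late (Ptgs2 and Ptgds) and 1 for the average (Ptgs2), and Cbr2 missed the late threshold (adjusted p = 0.0515).

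Signs turned for values near 0 or from few counts, none of them a call. Early Ptgs1 became -0.10 with the stricter filter, -0.03 with the early libraries alone and -0.06 with the replicate block (-0.21 to 0.34 with 1 library left out). Early Ptges2 became 0.05 with no filter, 0.19 with limma-voom and 0.12 with the block (-0.33 to 0.61). Early Ptgfr became 0.98 with limma-voom, 1.24 with the block and 4.80 without both wild-type libraries (-1.26 to 4.79), late Ptger4 1.13 with the block (-0.66 to 2.58), and early Hpgd -0.22 with limma-voom. With 1 library left out, early Ptges3 ran from -0.29 to 0.0 and early Cbr2 from -0.08 to 0.51. With 3 libraries per group and few counts of Ptger4, Ptgfr and Hpgd, depth limits what their values can show; stage differences cannot be told apart from batch. Ptger4, Ptgfr and Hpgd gave no value in some alternatives because a filter removed them.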
